A study of Rattus norvegicus with 34 samples.

Results

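The small heat shock proteins of muscle are described here by 7 genes, Hspb1, Cryab, Hspb2, Hspb3, Hspb6, Hspb7 and Hspb8, out of 13337 genes with a symbol on the array and 6760 genes tested. The genes were chosen by name with results of these arrays known, selected on their change between doxorubicin (DOX) and saline in both tissues, heart and blood cells, and each was read by its single probe. The values of the 7 genes in those comparisons are therefore a description and carry no test. Only the comparisons between the tissues were not used in choosing them.
Female Sprague-Dawley rats received a single intraperitoneal injection of DOX, an anthracycline that is toxic to the heart, at 12 mg/kg, or of saline, and the tissues were collected after 48 h. The left ventricle (LV) of the heart and the PBMC, the mononuclear blood cells separated by gradient centrifugation, were taken from the same rats. Each tissue had 9 arrays labelled DOX and 8 labelled saline, 34 arrays in all. The RNA was amplified to cDNA before hybridization to Illumina RatRef-12 BeadChips, which measure a gene by the brightness of its probe.
For the PBMC the labels are not the only grouping. The estimates that the study published for the PBMC follow another one. There DOX 2 to 9 form the control side, and the DOX side is made up of saline 1 to 8 together with DOX 1, all named by their labels. The labels do not settle which is right, and both groupings are given throughout.

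Small heat shock proteins are chaperones that bind unfolding proteins without using ATP and hold them until other chaperones refold them or hand them to degradation. They share the alpha-crystallin domain and assemble into oligomers. Heart and skeletal muscle carry most members of the family at high levels, where they protect actin, desmin, filamin and titin against mechanical and oxidative stress. Some of them, Hspb1 and Cryab among others, are switched on by heat shock factors through the heat shock element of their promoters, while members restricted to muscle are also driven by muscle transcription factors.

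RefSeq promoter sequence (build GRCr8) was at hand for 5 of the 7 genes. The 250 bases before the gene start are shown, since the genes are known to differ in how they are switched on. The core of the heat shock element was searched as GAANNTTC and as TTCNNGAA, which read the same on both strands. The first 3 sequences are those that hold one of these cores, in capitals. They lie at chr12:26432302-26432551, minus strand, for Hspb1, at chr1:94934122-94934371, plus strand, for Hspb6, and at chr12:45837058-45837307, plus strand, for Hspb8.
Hspb1: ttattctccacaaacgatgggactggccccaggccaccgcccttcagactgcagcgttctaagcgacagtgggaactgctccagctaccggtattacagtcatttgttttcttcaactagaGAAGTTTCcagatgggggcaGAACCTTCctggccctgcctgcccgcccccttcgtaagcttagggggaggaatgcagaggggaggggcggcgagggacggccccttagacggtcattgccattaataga
Hspb6: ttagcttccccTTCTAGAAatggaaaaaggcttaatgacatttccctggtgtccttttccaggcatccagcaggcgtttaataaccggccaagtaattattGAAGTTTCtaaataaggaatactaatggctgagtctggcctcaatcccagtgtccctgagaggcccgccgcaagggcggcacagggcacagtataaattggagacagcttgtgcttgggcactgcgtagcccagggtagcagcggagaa
Hspb8: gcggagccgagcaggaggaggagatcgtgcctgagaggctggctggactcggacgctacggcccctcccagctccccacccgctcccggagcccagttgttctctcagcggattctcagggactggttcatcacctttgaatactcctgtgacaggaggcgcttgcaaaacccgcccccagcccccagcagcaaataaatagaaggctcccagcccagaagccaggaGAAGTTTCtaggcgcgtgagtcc
Hspb1 held 2 matches to GAANNTTC, which start at positions -129 and -109 from the gene start. Hspb6 held 1 match to each form, at -239 and -149, and Hspb8 held 1 match to GAANNTTC, at -23. One or the other form was found in 13.5% of the 33469 promoters of the same length. The last 2 sequences held neither form, and their capitals mark a match to the MEF2 site, the binding sequence of a transcription factor of muscle. They lie at chr2:47029166-47029415, minus strand, for Hspb3, and at chr5:159010509-159010758, plus strand, for Hspb7.
Hspb3: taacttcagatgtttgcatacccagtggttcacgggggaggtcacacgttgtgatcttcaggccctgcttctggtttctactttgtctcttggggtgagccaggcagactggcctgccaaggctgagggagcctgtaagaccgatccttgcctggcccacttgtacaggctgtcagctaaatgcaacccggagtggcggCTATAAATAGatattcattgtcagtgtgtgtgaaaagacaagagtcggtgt
Hspb7: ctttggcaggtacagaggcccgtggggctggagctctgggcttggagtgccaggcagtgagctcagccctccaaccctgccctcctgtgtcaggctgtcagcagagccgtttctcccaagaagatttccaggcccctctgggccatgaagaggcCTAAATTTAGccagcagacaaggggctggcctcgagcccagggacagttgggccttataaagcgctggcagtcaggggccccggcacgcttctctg
The MEF2 site was found in 2.96% of all promoters. The E-box CANNTG, bound by the MyoD family of muscle factors among others, was present in 4 of the 5 sequences, all but Hspb6, and in 65.5% of all promoters. A serum response element was in none of the 5 and in 1.5% of all promoters. None of the matches overlapped another. A match describes the letters only and shows no binding.

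The values are log2 intensities, set on each array to the median of its unexpressed probes. So 0 is background, and a difference of 1 stands for 2-fold in intensity. The background signal itself was not subtracted, so a gene can hardly fall by more than its height over background. A probe counted as above background on an array when it passed the 95th percentile of the probes not expressed there, a limit between 0.20 and 0.49. Probes differ in how brightly they bind, so levels are compared between arrays and not between genes. The tested genes as a whole were dimmer on the heart DOX arrays, with array medians of 0.22 to 0.70, against 1.32 to 1.79 on the heart saline arrays. The PBMC medians ran from 0.32 to 2.17 on arrays labelled DOX and from 0.30 to 1.46 on arrays labelled saline. The number of distinct values an array took was 2826 to 4802 for heart DOX and 22196 to 22417 for heart saline. In the PBMC it was 2804 to 5746 for saline 1 to 8, 3086 for DOX 1 and 22278 to 22419 for DOX 2 to 9. In the heart this difference between arrays and the treatment cannot be told apart, since each group lies wholly on one side of it, and in the PBMC it follows the second grouping and not the labels. The cardiac muscle markers fitted the tissue labels. All 9 with a probe passed the background limit on heart arrays of both groups, and 7 of them passed it on no PBMC array labelled saline and 9 on none labelled DOX.

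All 7 genes were lower in the heart after DOX, and the DOX arrays did not overlap the saline arrays for any of them. Their log2 fold changes ran from -5.09 to -1.60 with a median of -3.57, while the median over all 6760 genes was -0.94. All 7 were called lower (adjusted p under 0.05 with over 2-fold change), as were 48.2% of all genes tested, and 63.4% of all genes were lower without overlap. These shares are given as the setting of a choice that used the comparison, and nothing is read from them.

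**Figure D1:**
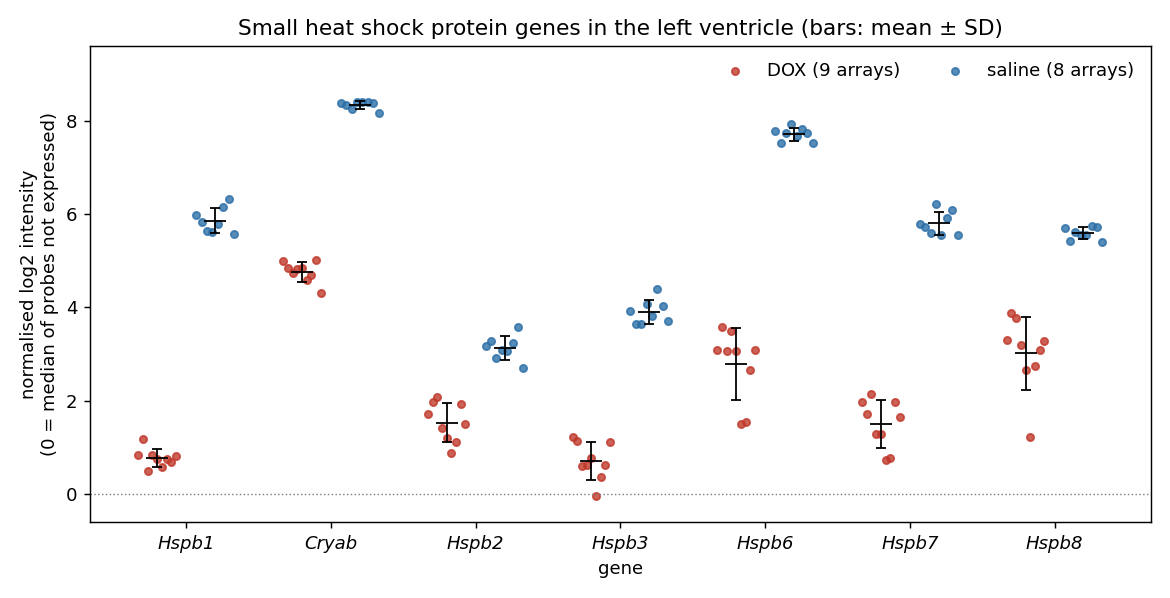
Normalised log2 intensity of the 7 genes on the 9 DOX and 8 saline arrays of the left ventricle, one point per array, with the mean and SD as bars and background at 0. Every DOX array lies below every saline array for each gene, and Hspb6 and Hspb8 spread most widely among the DOX arrays.

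Hspb1, Cryab and Hspb6 belong to the members that guard actin and the intermediate filaments. Hspb1, the actin-binding small heat shock protein that is phosphorylated through the p38 pathway, had 0.50, 0.76 and 1.18 as lowest, median and highest value on the DOX arrays, against 5.57, 5.81 and 6.32 on the saline arrays. The groups lay far apart, with a log2 fold change of -5.09 ± 0.11 (limma's SE), and only 2 of the 6760 genes had a lower one. Hspb1 stayed above the background limit on all 9 DOX arrays, though near it. Cryab, the alpha-B crystallin that binds desmin and titin, had 4.31, 4.83 and 5.02 on the DOX arrays, against 8.16, 8.38 and 8.40 on the saline arrays. All DOX arrays remained well above background, and the log2 fold change was -3.57 ± 0.09. On the saline arrays Cryab lay within 0.19 to 0.56 of the brightest value of the array, where the top of the scale may limit it. Hspb6, the small heat shock protein that is phosphorylated by protein kinase A and relaxes smooth muscle, had 1.50, 3.08 and 3.59 on the DOX arrays, against 7.51, 7.74 and 7.92 on the saline arrays. The DOX arrays were split, with 2 arrays at 1.50 and 1.54 and the other 7 at 2.66 or more. The log2 fold change of Hspb6 was -4.92 ± 0.25, below which lay 6 genes. On 5 of the 8 saline arrays Hspb6 was within 1 of the brightest value.

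Hspb2 and Hspb3 form a complex with each other and are largely restricted to muscle. Hspb2, which binds the myotonic dystrophy kinase, had 0.88, 1.49 and 2.08 on the DOX arrays, against 2.70, 3.12 and 3.58 on the saline arrays. The groups came closest for this gene, with a log2 fold change of -1.60 ± 0.16 and 2037 genes lower still. Hspb3 had -0.04, 0.63 and 1.22 on the DOX arrays, against 3.64, 3.87 and 4.40 on the saline arrays. It was above background on 8 of the 9 DOX arrays, and its log2 fold change was -3.19 ± 0.16. Hspb2 and Cryab are neighbours on chromosome 8, with no gene between them in the RefSeq gene table, and their fold changes were -1.60 and -3.57.

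Hspb7 and Hspb8 both act on filamin C, the actin crosslinker of the Z-disc. Hspb7, the cardiovascular member, had 0.73, 1.66 and 2.14 on the DOX arrays, against 5.56, 5.76 and 6.22 on the saline arrays. Its lowest 2 DOX arrays, at 0.73 and 0.77, were the same 2 arrays that were lowest for Hspb6. The log2 fold change was -4.30 ± 0.19, and 25 genes had a lower one. Hspb8, which works with Bag3 to send damaged filamin to autophagy, had 1.22, 3.19 and 3.89 on the DOX arrays, against 5.41, 5.58 and 5.74 on the saline arrays. One DOX array, replicate 6, stood apart at 1.22, with the next at 2.66. The log2 fold change of Hspb8 was -2.57 ± 0.26, and it was -2.35 without that array.

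The choice of normalization set the size of these changes. With the arrays brought to one distribution by quantile normalization, the median of all genes was -0.23 and the log2 fold changes were -3.47 for Hspb1, -2.80 for Hspb6, -2.54 for Hspb7, -1.90 for Hspb3 and -1.48 for Cryab. These 5 genes were called lower under both normalizations, beside 1049 of all 6760 genes called lower after quantile normalization. Hspb8 at -0.66 and Hspb2 at -0.06 were not called after quantile normalization. Set against the median gene, Hspb2 was 0.65 lower with the median of the probes not expressed subtracted, and 0.18 higher with quantile normalization, so its direction relative to the other genes depends on the scale. The other 6 genes lay below the median gene on both scales, from -4.15 for Hspb1 to -1.63 for Hspb8 on the first and from -3.23 for Hspb1 to -0.43 for Hspb8 on the second.

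**Figure D2:**
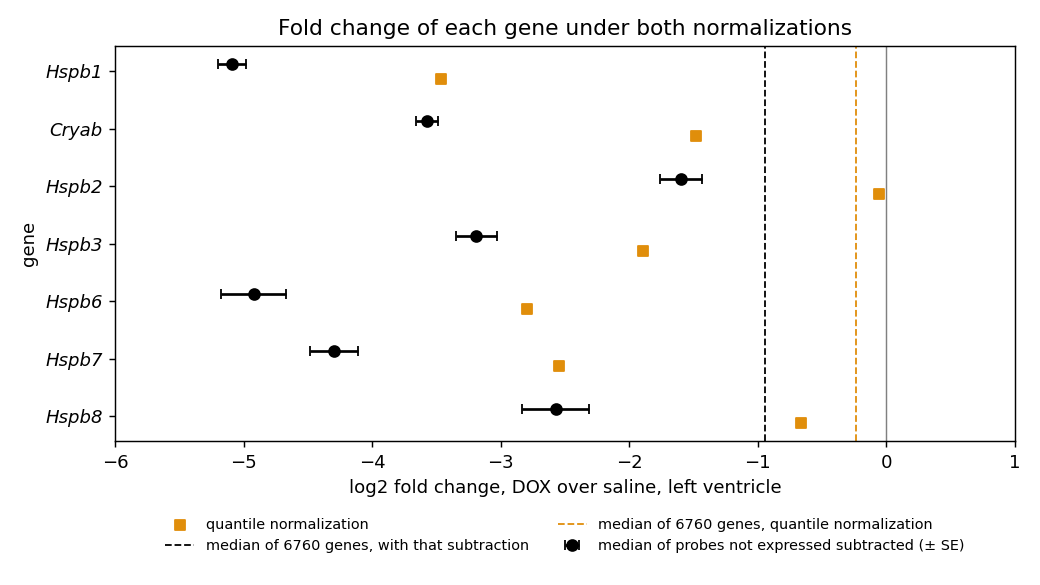
Log2 fold change, DOX over saline, of the 7 genes in the left ventricle, as circles with SE after subtraction of the median of the probes not expressed and as squares after quantile normalization, with the median of the 6760 tested genes as a dashed line for each. Hspb1, Hspb6 and Hspb7 lie farthest below the median gene on both scales, and Hspb2 crosses it between them, at -1.60 and -0.06.

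Markers of the cells of the ventricle were measured beside these genes. Beside the 48.2% of all genes called lower and 1.36% called higher, 6 of 9 cardiac muscle markers were called lower and 1 higher, and their mean per array was 3.53 to 4.70 in DOX hearts and 5.54 to 6.24 in saline hearts. Of the fibroblast markers 4 of 5 were called lower, with means of 0.82 to 2.22 in DOX hearts and 3.18 to 4.69 in saline hearts, and Pdgfra passed the background limit on no DOX array. Of the 5 leukocyte markers tested, none was called in either direction, with means of 0.40 to 0.78 in DOX hearts and 0.84 to 1.04 in saline hearts. However, 4 of them, Ptprc, Cd3e, Cd79b and Cd14, passed the background limit on no DOX array. Cd79b passed it on no saline array either. The lack of a call therefore says little about these markers. Of the other lists 1 of 1 smooth muscle marker tested, 1 of 2 endothelial, 2 of 5 platelet and 1 of 4 red cell markers were called lower, and none higher. The part of any list in the change of the small heat shock proteins was not tested. In samples of whole tissue, fewer cells of a type and less RNA per cell cannot be told apart.

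From array to array within a group, the 7 genes varied by different amounts. Among the DOX arrays the SD was 0.19 for Hspb1, 0.22 for Cryab, 0.41 for Hspb3, 0.42 for Hspb2, 0.52 for Hspb7, 0.77 for Hspb6 and 0.79 for Hspb8. Among the saline arrays it was 0.09 for Cryab and between 0.13 and 0.27 for the other 6. DOX replicate 6 was the lowest DOX array for 5 of the 7 genes, all but Hspb1 and Cryab, and it also had the lowest array median, 0.22, and 2826 distinct values. Saline replicate 8 was the lowest saline array for 5 of the 7, all but Hspb3 and Hspb7. Leaving out each array in turn changed no call of the 7 genes in the heart.

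**Figure D3:**
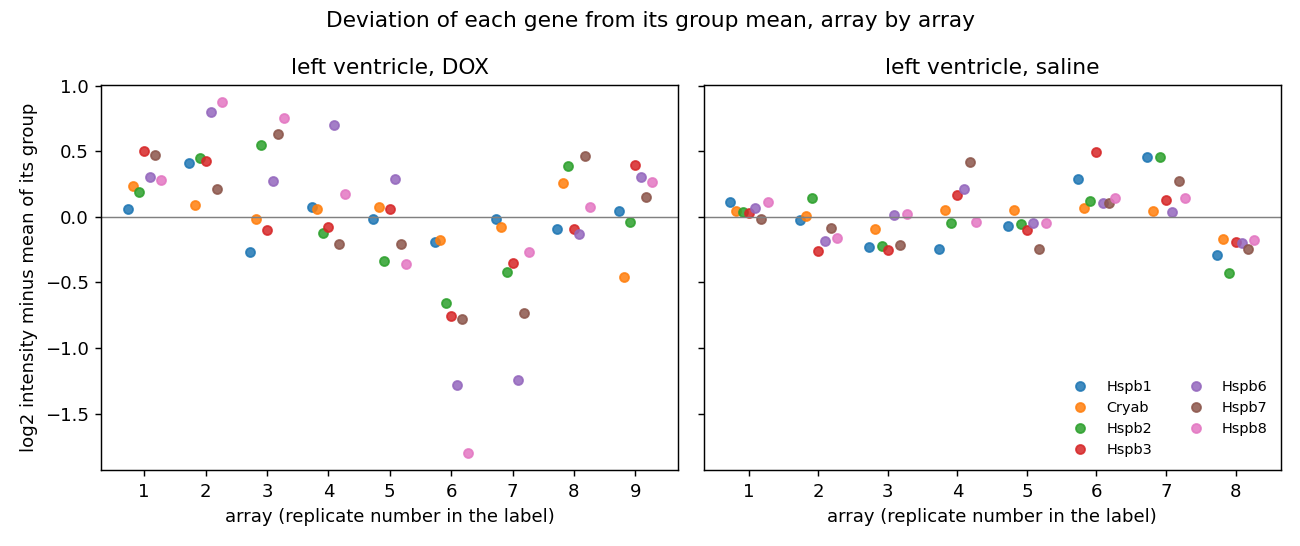
Log2 intensity minus the mean of its group for the 7 genes on each left ventricle array, DOX arrays on the left and saline arrays on the right, by replicate number. DOX replicate 6 is lowest for Hspb2, Hspb3, Hspb6, Hspb7 and Hspb8, while Hspb1 and Cryab stay within 0.5 of their group mean throughout.

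The deviations from the group means were used to describe which genes moved together over the 17 heart arrays. Over the 21 pairs of the 7 genes Pearson's r was 0.18 to 0.86 with a median of 0.56, highest between Hspb2 and Hspb7 and lowest between Hspb1 and Hspb7. The neighbours Hspb2 and Cryab had r = 0.47. All genes of an array share its brightness, and r with the array median was 0.40 for Cryab and 0.53 to 0.71 for the others. The 3 genes most like each member were sought among all tested genes. For Hspb8 they were Sumf1 (r = 0.96), Bag3 (r = 0.96) and Atp5f1b (r = 0.95), of which Bag3 encodes its cochaperone. In DOX arrays alone r between Hspb8 and Bag3 was 0.97, and in saline arrays alone 0.77. The same values were 0.979 and 0.585 for Sumf1, and 0.975 and 0.185 for Atp5f1b. Hspb8 itself had r = 0.85 with the array median in DOX arrays alone and 0.77 in saline arrays alone. DOX replicate 6, where Hspb8 stood apart, is among these DOX arrays, and r without it was not computed. Across the array set 87 genes had an r over 0.9 with Hspb8, and its median r with the tested genes was 0.43. For Hspb6 the likest were Txlnb (r = 0.97), Chmp3 (r = 0.96) and Sh3kbp1 (r = 0.96), with 106 genes over 0.9. In saline arrays alone their r with Hspb6 was 0.67, 0.57 and 0.65. For Hspb2 they were Gstm5 (r = 0.96), Lamtor1 (r = 0.95) and Rab3b (r = 0.95). The likest gene was Cln8 for Hspb3 (r = 0.93), Cdc37 for Hspb7 (r = 0.91), Man2c1 for Hspb1 (r = 0.87) and Elob for Cryab (r = 0.85). Hspb1 and Cryab had no gene over 0.9.

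The proteins that switch on, phosphorylate, bind or are held by small heat shock proteins were followed as a list of 25 genes, of which 21 had a probe and 17 were tested. The list was chosen with earlier results of these data known. Its counts and p-values, in the heart and in the PBMC, are therefore a description and not an independent test. In the heart 14 of the 17 fell and none rose, beside 48.2% of all genes falling and 1.36% rising. No gene of the list was higher at an unadjusted p under 0.05 by limma either. The median log2 fold change of the 17 was -2.43. The kinases fell, namely Prkaca, the catalytic subunit of protein kinase A, with 1.10 in DOX hearts and 5.25 in saline hearts (log2 fold change -4.15 ± 0.19, limma adjusted p = 3.29e-13), and Mapkapk2, the kinase of Hspb1 below p38 (-3.27 ± 0.13, adjusted p = 3.33e-14). Bag3, the partner of Hspb8, had a mean of 1.83 in DOX hearts and 5.88 in saline hearts (-4.05 ± 0.18, adjusted p = 2.09e-13). Among the filament proteins Vim, the vimentin of cells other than muscle, fell by 3.44 ± 0.22 on the log2 scale (adjusted p = 2.61e-11). Des, the desmin filament to which Cryab binds, averaged 4.71 in DOX hearts and 7.36 in saline hearts (-2.65 ± 0.15, adjusted p = 6.8e-12). With quantile normalization 7 of the 17 fell and 2 rose, beside 1049 of all 6760 genes falling and 448 rising on that scale. Des was then no longer called at -0.33. Dnaja1, a chaperone partner of the Hsp70 family, was at 0.49, against -1.30 without that normalization.

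The members of the list that did not pass in the heart were Ywhag, Actc1 and Dnajb6. Ywhag, a 14-3-3 protein, averaged 1.84 in DOX hearts and 1.59 in saline hearts (0.25 ± 0.17, adjusted p = 0.176). It is the gene next to Hspb1 on chromosome 12 in the RefSeq gene table. After quantile normalization Ywhag was called higher, at 1.52 (adjusted p = 2.88e-09). Dnajb6, a chaperone that works against protein aggregates, averaged 3.02 in DOX hearts and 3.66 in saline hearts (-0.64 ± 0.23, adjusted p = 0.0138), below 2-fold, and was called higher, at 1.11, with quantile normalization. The direction of Dnajb6 thus turned with the scale, while Ywhag was positive on both scales and passed on one. Actc1, the cardiac actin, averaged 0.57 in DOX hearts and 1.20 in saline hearts (-0.64 ± 0.15, adjusted p = 0.000511), also below 2-fold. Its probe was thus not far above the background limit even in saline hearts, which left little room for a fall. Hsf1, Hspa8, Ttn and Hspa1a had no probe with their symbol, and Hsf4, Mapkapk3, Prkg1 and Hsph1 were not expressed by the filter.

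In the PBMC 6 of the 7 genes, all but Hspb6, were above the background limit on none of the 17 arrays, and the arrays cannot show a change for them. Their values lay between -0.43 and 0.22. They passed the filter on expression through the heart arrays, and only Hspb6 passes it on the PBMC arrays taken alone.
Hspb6 was the exception. By the labels its lowest, median and highest values were 0.05, 1.75 and 2.31 on the DOX arrays, against -0.14, 0.11 and 1.13 on the saline arrays. The labelled groups overlapped, since DOX 1 lay among the saline arrays and saline 4 stood above DOX 1. Hspb6 was above background on 8 of 9 arrays labelled DOX and on 2 of 8 labelled saline. The log2 fold change by the labels was 1.39 ± 0.26, called higher, as were 44.5% of all genes, while 0.769% were called lower.
By the second grouping the values were -0.14, 0.06 and 1.13 on the arrays of saline 1 to 8 and DOX 1, against 1.44, 1.76 and 2.31 on DOX 2 to 9. These groups did not overlap, as for 38.4% of all genes in this direction. The log2 fold change was -1.61 ± 0.16, called lower, as were 54.4% of all genes, while 0.473% were called higher. The direction of Hspb6 in the PBMC therefore turns with the grouping, and by neither grouping was it called with quantile normalization, at 0.74 by the labels and -0.88 by the second.

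The level of Hspb6 in the PBMC moved with the brightness of the array. Hspb6 minus the median of the tested genes lay between -0.48 and -0.27 on the 9 arrays of saline 1 to 8 and DOX 1, and between -0.38 and 0.19 on DOX 2 to 9. Saline 4, where Hspb6 was 1.13, had an array median of 1.46, the highest of the arrays labelled saline, and DOX 1, at 0.05, had 0.32, the lowest of those labelled DOX. Of 5 leukocyte markers 4 were called higher by the labels, beside 44.5% of all genes, and 4 lower by the second grouping, beside 54.4%. The means of these markers were 1.18 to 4.13 on saline 1 to 8 and DOX 1, and 4.44 to 5.28 on DOX 2 to 9. The part of either in the level of Hspb6 was not tested.

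**Figure D4:**
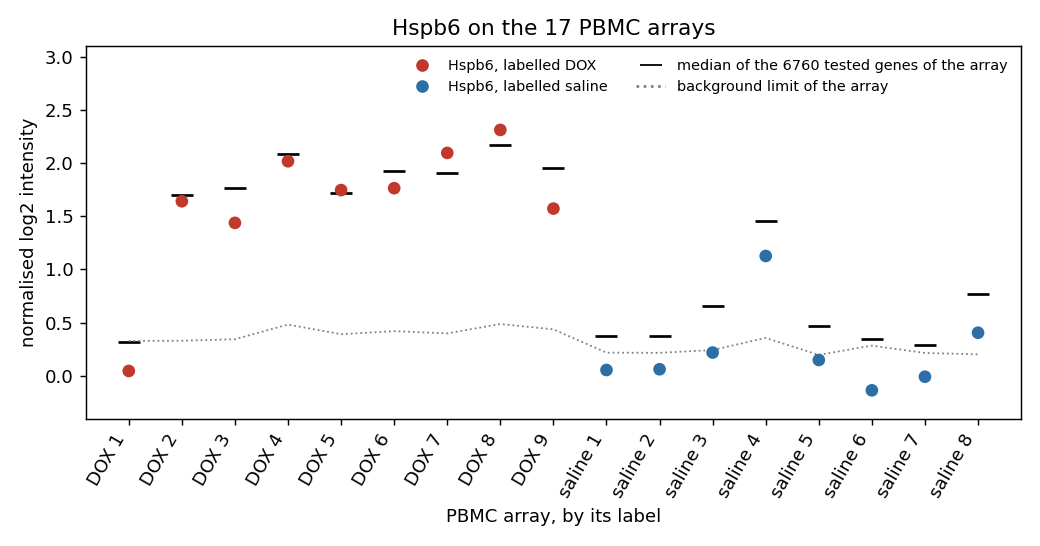
Normalised log2 intensity of Hspb6 on the 17 PBMC arrays, coloured by label, with the median of the tested genes of each array as a bar and its background limit as a dotted line. DOX 1 lies with the saline arrays at 0.05, saline 4 stands above them at 1.13, and the points follow the array medians.

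Of the list of partners 11 of the 17 were higher and none lower in the PBMC by the labels, beside 44.5% of all genes higher, and 12 were lower and none higher by the second grouping, beside 54.4% of all genes lower. At an unadjusted p under 0.05 by limma, none was lower by the labels and none higher by the second grouping. The largest change in both was that of Bag3, with a mean of 4.14 on arrays labelled DOX and 1.13 on arrays labelled saline (3.02 ± 0.58, adjusted p = 0.000346), and with -3.54 ± 0.36 by the second grouping (adjusted p = 1.42e-07). Prkaca, Mapkapk2 and Sqstm1, the receptor that carries ubiquitinated proteins to autophagy, came next, at 2.37, 2.25 and 2.03 by the labels. By the second grouping Prkaca, Mapkapk2 and Vim followed Bag3, at -2.97, -2.82 and -2.72. The filament and muscle proteins Des, Flnc, Synpo2 and Actc1 passed in neither grouping, with log2 fold changes between -0.09 and 0.05. Their group means in the PBMC were 0.01 to 0.29, at or near the background limit, so the arrays can hardly show a change for them. With quantile normalization Bag3 alone was called by the labels, at 1.62, beside 464 of all 6760 genes called higher. By the second grouping 4 of the 17 were then called lower, beside 680 of all 6760 genes. The direction of Stub1 and Dnajb6 turned with that normalization in both groupings, of Mapk14 by the labels and of Dnaja1 by the second grouping.

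The comparisons between the tissues did not enter the choice of the genes, except that muscle genes were chosen. In hearts of saline rats all 7 genes were higher than in the PBMC labelled saline, and the arrays did not overlap for any of them. Of all genes 39.1% were called higher in this comparison, and 34.1% were higher without overlap. The PBMC arrays were at background for 6 of the genes, so these have only a lower bound, the heart mean over the limit of detection of the PBMC arrays. Cryab was at least 273-fold higher, Hspb1 at least 49.1-fold, Hspb7 at least 47.3-fold, Hspb8 at least 40.7-fold, Hspb3 at least 12.7-fold and Hspb2 at least 7.39-fold. Since these 6 genes entered the test only through the heart arrays, where they are high, no p is given for them and their calls are a description. Hspb6 was above background on 2 of the 8 PBMC arrays and within 1 of the brightest value on 5 of the 8 heart arrays. It averaged 7.71 in hearts and 0.24 in PBMC, where the mean is near the background limit, and the fitted difference was 7.48 ± 0.15.
Against the PBMC arrays labelled DOX 2 to 9, the control side of the second grouping, the 7 genes were called higher as well, as were 16% of all genes, and none overlapped, beside 20.6% of all genes. The bounds ran from at least 6.57-fold for Hspb2 to at least 243-fold for Cryab, and Hspb6 differed by 5.89 ± 0.11. Since Hspb6 was chosen as a gene of muscle, its differences between the tissues are a description too.

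The same comparisons were made for the hearts of DOX rats. Here too all genes but Hspb6 entered the test only through the heart arrays, and muscle genes were chosen. Their calls are therefore a description, and nothing is read from the shares beside them. Against the PBMC arrays labelled DOX, 5 of the 7 genes were called higher in the hearts of DOX rats, beside 4.67% of all genes, and the arrays did not overlap for 6 of the 7, beside 5.16% of all genes. Cryab was at least 20.5-fold higher, Hspb8 at least 6.12-fold, Hspb2 at least 2.19-fold and Hspb7 at least 2.15-fold. Hspb1 and Hspb3 were not called. Their bounds of at least 1.29-fold and at least 1.24-fold leave the size of the difference unknown. With quantile normalization all 7 genes were called higher, beside 1037 of all 6760 genes. Hspb6 averaged 2.79 in DOX hearts and 1.63 in the PBMC labelled DOX (1.16 ± 0.32). Its arrays overlapped, and without the PBMC array labelled DOX 1 the difference was 0.97 and no longer passed 2-fold.
Against the PBMC arrays of saline 1 to 8 and DOX 1, the same 5 genes were called, beside 8.09% of all genes, and 6 of the 7, all but Hspb3, did not overlap, beside 6.42%. Hspb1 and Hspb3 again had only bounds, at least 1.43-fold and at least 1.38-fold. Cryab was at least 22.8-fold, Hspb8 at least 6.79-fold, Hspb2 at least 2.43-fold and Hspb7 at least 2.39-fold higher, and Hspb6, above background on 2 of these 9 PBMC arrays, had a fitted difference of 2.57 ± 0.27. These comparisons share the heart arrays with those of DOX and saline.

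**Figure D5:**
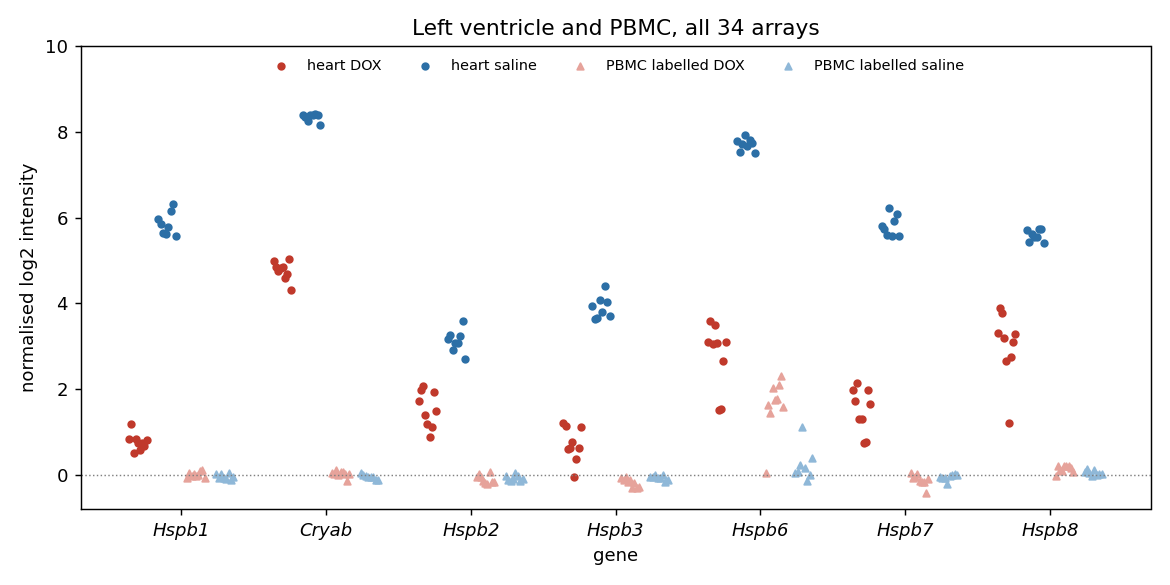
Normalised log2 intensity of the 7 genes on all 34 arrays, heart arrays as circles and PBMC arrays as triangles, DOX left of saline by the labels, with background at 0. Heart saline arrays stand above all others for each gene, and the PBMC arrays lie at background except for Hspb6, which reaches 2.31.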

How the data were processed

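Expression was measured on 34 Illumina RatRef-12 BeadChip arrays of the left ventricle and the PBMC. The deposited log2 intensities, for 22523 probes, were exported by the authors without background subtraction and centred on the median of each array. The deposited tables of raw intensities hold 34 columns of per-sample values whose sample numbers match no label, and they were not used, so no detection p-values entered. The number of arrays limits the precision.

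Following the methods of the study, each array was set to the median of its unexpressed probes. A probe was expressed above a mean of 0.1524 over all arrays. One symbol was found for 13793 probes, several for 0 and none for 8730, from the platform annotation updated by Entrez ID (13752 matched). The brightest probe by mean stood for a gene, and 6760 genes were tested. Groups were compared by limma 3.58.1 in R 4.3.3 (lmFit, eBayes, Benjamini-Hochberg over the 6760 genes), with calls at adjusted p below 0.05 and over 2-fold, and the error is limma's standard error. The fit was tested on simulated data. Bounds set the mean of a group against the background limit of arrays where the probe was not above it. Python 3.11.15 served for the tables and figures.

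The members, the list of partners and the markers were chosen with earlier results of these data known. Genes named are the 7 members, the partners with the 4 largest changes or moving against the list, the 3 genes most like each member, and other small heat shock proteins. Des and the partners that did not pass were named after their values were seen. The study numbered heart and PBMC samples by rat. Deviations of arrays with the same number in both tissues had r = -0.18 to 0.11 for saline and -0.10 to 0.15 for DOX, and the tests took the tissues as independent.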

Additional observations from a re-analysis of the deposited data

Results flagged for a closer look

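Among 42 sets of array values of the 7 genes (7 genes in 6 groups, the PBMC grouped both ways), an array stood apart by Dixon's test in 10, where chance gives about 1 in 20, and the sets share arrays. Hspb8 was lowest on heart DOX replicate 6, at 1.22, an array that is also the dimmest of its group. Hspb6 was lowest among arrays labelled DOX on PBMC DOX 1, at 0.047, and highest among arrays labelled saline on PBMC saline 4, at 1.13, also with DOX 1 added to that side. The other cases lay at background. Cryab was lowest on PBMC DOX 8, at -0.14, and Hspb7 was lowest on PBMC DOX 8, at -0.43, each by both groupings, and Hspb7 was lowest among saline arrays on PBMC saline 4, at -0.21, by both groupings.

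Hspb3 differed in opposite directions in the tissues, at -3.19 in the heart after DOX and at 0.13 in the PBMC by the second grouping, a difference that was not tested. Both sides of the PBMC comparison lay under the background limit.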

How the results depend on the processing

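Calls were recomputed with quantile normalization, the deposited values as they are, no filter on expression, the mean of all probes, array weights, each array left out, the PBMC arrays saline 6 and DOX 1 left out, and the replicate number as a block. Of the counts of calls 468 stayed within 1.5 times the main count and 6 did not, all with quantile normalization. These were 7 partners lower and 2 higher in the heart, 0 members and 1 partner higher in the PBMC by the labels, and 0 members and 4 partners lower in the PBMC by the second grouping. The members' fold changes between DOX and saline were judged by size, and by direction where called. Those between the tissues were judged by direction and call alone. By these rules 402 stayed the same. Between DOX and saline 20 moved by more than the spread between replicates, 11 with quantile normalization and 9 with the deposited values. Sizes between the tissues also moved with quantile normalization, as for Hspb6 in DOX hearts against PBMC labelled DOX, from 1.16 to 2.83. With quantile normalization 4 called values were then under 2-fold, those of Hspb2 (-0.06) and Hspb8 (-0.66) in the heart and of Hspb6 in the PBMC (0.74 by the labels, -0.88 by the second grouping). In DOX hearts against PBMC labelled DOX, Hspb6 was under 2-fold at 0.97 without PBMC DOX 1. Leaving out saline 6 and DOX 1 is the same fit there, since saline 6 is not in that comparison. In it Hspb1 and Hspb3 came to be called with quantile normalization, Hspb3 also with array weights. No called member changed direction. Called partners did with quantile normalization, 1 of 14 in the heart (Dnaja1), 3 of 11 in the PBMC by the labels and 3 of 12 by the second grouping. The causes were not tested.

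With the replicate block, 7 members and 14 partners were called lower in the heart, as without it, and no call changed in any comparison. Arrays of the same number in the DOX and saline groups had r = -0.14 to 0.15 in the heart, with a median of -0.03. In the PBMC r was -0.42 to 0.78 with a median of 0.28, and 5 of 8 pairs were over 0.1. There 2 of the 8 DOX arrays were most like the saline array of their own number. Whether the numbers pair the PBMC arrays was not tested. Signal over background limits the PBMC values of all members but Hspb6. Cryab lay close to the brightest value on the heart saline arrays, and whether the scale limits it there was not tested.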

Other observations

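Of the other small heat shock proteins outside muscle, Hspb9, a member of the testis, was above the background limit on none of the 34 arrays, with values between -0.25 and 0.16. Odf1, the outer dense fibre protein of the sperm tail, did not pass the filter on expression. It was above background on 7 of 9 heart DOX arrays, with values of -0.07 to 0.80, and on none of the 8 heart saline arrays, with values of -0.07 to 0.09, nor on any PBMC array. No probe carried the symbol Cryaa.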
